A study of Mus musculus with 15 samples.

Results

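The inflammatory CC chemokines Ccl2, Ccl3, Ccl4, Ccl5, Ccl7, Ccl8 and Ccl12 and the CC chemokine receptors Ccr1 and Ccr2 were followed in mouse cardiac and hepatic allografts. These 9 genes, of 18217 gene symbols on the array, were taken by name, and all 11 of their probes, of 41174 probes on each array, were read: Ccl7 and Ccr2 had 2 probes each and the others 1. For a gene with 2 probes, the probe with the highest mean over all arrays stood for the gene. Total RNA of whole tissue was hybridized to 15 single-colour Agilent arrays, 3 in each of 5 groups: cardiac allografts at post-operative day (POD) 5, cardiac controls, hepatic allografts at POD 5, hepatic allografts at POD 8, and hepatic controls. Hearts came from C57BL/10 donors (H-2b) and were placed in the abdomen of CBA recipients (H-2k) beside their own heart. Livers came from B10.BR donors (H-2k) and replaced the liver of B10.D2 recipients (H-2d). All mice were male, their age is not given in the sources used here, and the strain of the controls is not given either. The controls are called normal tissue in the labels and methods and syngeneic grafts elsewhere in the study, so they are called controls here. The study names separate mice for its PCR measurements. For the arrays the sources used here do not say whether the samples of a group came from separate animals, and P-values then measure only the spread between these samples, which may be technical.

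CC chemokines are small secreted proteins, named for a pair of adjacent cysteines, that bind G-protein-coupled receptors on leukocytes and direct their migration into tissue. Ccl2, Ccl7 and Ccl12 are ligands of Ccr2, the receptor that inflammatory monocytes use to leave the bone marrow and enter tissue, and with Ccl8 they form the monocyte chemoattractant protein group. Ccl3 and Ccl4 are the macrophage inflammatory proteins 1 alpha and 1 beta, and Ccl5 (RANTES) is made in quantity by activated T cells and natural killer cells. Ccr1, a receptor of Ccl3 and Ccl5 among others, is carried by monocytes, macrophages and neutrophils. In a rejecting graft these ligands are known to come from both the graft's own cells and the cells that enter it.

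Depth differed between the groups. The 75th percentile of the processed signal was 394 to 710 on the cardiac allograft arrays, 1021 to 1247 on the cardiac controls, 338 to 478 on the hepatic allografts at POD 5, 384 to 454 at POD 8 and 92.1 to 226 on the hepatic controls, and 52.5% to 70.4% of probes were well above background. The first hepatic control was the dimmest array. Levels below are log2 signals after quantile normalization over the 15 arrays, and every difference is in log2 units unless a fold is given. A gene was called when its limma P-value, adjusted over all probes by Benjamini-Hochberg, was under 0.05. The 3 cardiac controls were scanned on a slide of their own and the 3 cardiac allografts on another, so the cardiac comparison and the slide cannot be told apart. Tissue identity held on every array: the mean level of 6 cardiomyocyte markers was 14.53 to 16.32 on the heart arrays and 2.25 to 3.44 on the liver arrays, and that of 6 hepatocyte markers was 2.82 to 4.02 and 16.47 to 16.70.

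All 7 ligand genes lie on mouse chromosome 11, with Ccl2, Ccl7, Ccl12 and Ccl8 in one run and Ccl5, Ccl3 and Ccl4 in another, and both receptor genes lie on chromosome 9. RefSeq promoters of the GRCm38.p6 build were matched for 5 of the 9 genes (Ccl3, Ccl8, Ccl12, Ccr1 and Ccr2). Each window ran from 250 bases before to 50 bases after a start site. For Ccr2 this site lay inside the gene: its window, chr9:124101933-124102232, began after the gene start at 124101918. The 250 bases before the start are shown, 5′ to 3′, for Ccl8 and Ccl12, neighbouring genes of the monocyte chemoattractant group, and for Ccl3, from the other run. Capitals mark the TATA box.
Ccl8, chr11:82114935-82115184, plus strand: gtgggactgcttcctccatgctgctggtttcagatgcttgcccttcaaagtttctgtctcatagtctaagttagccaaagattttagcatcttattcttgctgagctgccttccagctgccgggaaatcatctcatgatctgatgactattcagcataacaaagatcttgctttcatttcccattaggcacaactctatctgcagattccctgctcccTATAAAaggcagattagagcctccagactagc
Ccl12, chr11:82101595-82101844, plus strand: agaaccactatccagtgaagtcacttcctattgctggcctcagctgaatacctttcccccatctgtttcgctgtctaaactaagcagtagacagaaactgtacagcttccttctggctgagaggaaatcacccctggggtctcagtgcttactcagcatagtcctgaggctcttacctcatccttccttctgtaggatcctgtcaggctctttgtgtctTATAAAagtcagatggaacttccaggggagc
Ccl3, chr11:83649379-83649628, minus strand: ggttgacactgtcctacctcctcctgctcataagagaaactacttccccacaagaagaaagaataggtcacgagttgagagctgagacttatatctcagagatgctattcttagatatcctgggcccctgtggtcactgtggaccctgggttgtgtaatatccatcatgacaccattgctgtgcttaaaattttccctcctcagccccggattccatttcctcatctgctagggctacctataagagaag
On either strand, the letters TATAAA were found at -32 to -27 in Ccl8 and at -31 to -26 in Ccl12 and not in the other 3 windows, and 13.6% of all 32851 promoter windows held them. The NF-kB site was found once, in Ccr1 at -74 to -65, and was present in 8.46% of all windows. The gamma-activated site TTCNNNGAA (8.30% of all windows) and the interferon-stimulated response element core GAAANNGAAA (3.44%) were in none of the 5 windows. A match is a description of the letters and says nothing of binding.

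Ccl2, the main ligand of Ccr2, was already high in the control heart and rose further in the cardiac allografts. Its level was 13.54, 13.29 and 13.30 in the cardiac controls and 15.20, 16.12 and 15.61 in the cardiac allografts. The groups did not overlap, and the difference was 2.27 ± 0.25 (SE, n = 3 and 3), or 4.81-fold, with a limma adjusted P-value of 0.0032. In the liver, Ccl2 was 7.78, 8.46 and 9.07 in the controls, 12.28, 11.39 and 11.88 at POD 5 and 11.64, 11.68 and 11.35 at POD 8. Every hepatic allograft lay above every hepatic control, with differences of 3.42 ± 0.40 at POD 5 (10.7-fold, limma adjusted P = 0.023) and 3.12 ± 0.35 at POD 8 (8.70-fold, limma adjusted P = 0.015). All 6 hepatic allografts remained below the lowest cardiac control. The Ccl2 probe is printed on 10 spots of each array, which were averaged, so its level has less spot-to-spot error than those of the other genes, which have 1 spot each.

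Ccl7, another ligand of Ccr2, followed the same order. It was 11.08, 10.65 and 10.59 in the cardiac controls and 12.79, 14.10 and 13.18 in the cardiac allografts, a rise of 2.58 ± 0.37 (limma adjusted P = 0.0064). In the hepatic controls it was 2.90, 5.42 and 5.04, with the first of these arrays not well above background, against 8.39, 8.41 and 9.15 at POD 5 and 8.52, 8.63 and 8.28 at POD 8. The hepatic groups did not overlap, but the wide spread of the controls left the POD 5 difference of 4.20 ± 0.72 just outside the threshold (limma adjusted P = 0.0502), while the POD 8 difference of 4.02 ± 0.69 was called (limma adjusted P = 0.042). The second Ccl7 probe gave a like difference in the heart (2.95 ± 0.38, limma adjusted P = 0.0049) and smaller differences in the liver, 2.63 ± 0.70 at POD 5 and 2.63 ± 0.71 at POD 8, neither of them called (limma adjusted P = 0.12 and 0.11).

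Ccl8 had the largest gap between the organs. In the heart it was 14.35, 13.62 and 13.99 in the controls and 15.09, 16.07 and 15.07 in the allografts, a called rise of 1.43 ± 0.35 (2.69-fold, limma adjusted P = 0.031). In the liver it was 5.59, 7.89 and 7.67 in the controls, 9.53, 10.58 and 9.91 at POD 5 and 11.54, 11.89 and 11.39 at POD 8. No hepatic groups overlapped, and Ccl8 was the ligand with the largest step from POD 5 to POD 8. The difference from the controls was 2.96 ± 0.69 at POD 5, which was not called (limma adjusted P = 0.094), and 4.56 ± 0.66 at POD 8, which was called (23.6-fold, limma adjusted P = 0.028). The call in the heart was lost when any 1 of the heart arrays but the second allograft was left out, with limma adjusted P-values of 0.053 to 0.094.

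Ccl12, the mouse chemokine closest in use to Ccl2, showed the smallest rise of the ligands in the heart. It was 11.82, 11.70 and 10.99 in the cardiac controls and 12.13, 13.52 and 12.26 in the cardiac allografts. The groups did not overlap, but the difference of 1.14 ± 0.45 was not called (limma adjusted P = 0.11), and 1 allograft stood well above the other two. In the liver it was 3.76, 5.20 and 5.43 in the controls, with the first not well above background, 7.52, 7.65 and 7.96 at POD 5 and 7.69, 8.08 and 7.31 at POD 8. The hepatic differences were called at both times, 2.91 ± 0.48 at POD 5 (7.52-fold, limma adjusted P = 0.045) and 2.90 ± 0.50 at POD 8 (7.44-fold, limma adjusted P = 0.042).

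Ccl3 had the largest hepatic differences of the 9 genes. It was 8.39, 7.64 and 7.64 in the cardiac controls and 11.86, 12.83 and 12.72 in the cardiac allografts, a rise of 4.58 ± 0.35 (23.9-fold, limma adjusted P = 0.0014). In the hepatic controls it was 3.07, 5.45 and 4.86, the first not well above background, and it reached 9.63, 10.29 and 10.27 at POD 5 and 10.59, 10.83 and 11.04 at POD 8. All hepatic allografts lay above all cardiac controls, the opposite order to that of the 4 monocyte chemoattractant genes. The hepatic differences were 5.61 ± 0.65 at POD 5 (48.7-fold, 95% interval 15.6 to 152, limma adjusted P = 0.022) and 6.36 ± 0.64 at POD 8 (82.1-fold, 95% interval 26.9 to 251, limma adjusted P = 0.011).

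Ccl4 moved with Ccl3. It was 9.24, 8.32 and 8.11 in the cardiac controls and 12.76, 13.41 and 13.09 in the cardiac allografts, a rise of 4.53 ± 0.35 (23.1-fold, limma adjusted P = 0.0014). In the liver it was 5.39, 5.998 and 6.02 in the controls, well above background on all 3 arrays, 10.39, 10.72 and 11.74 at POD 5 and 11.52, 11.75 and 11.54 at POD 8. Its hepatic controls varied least of the ligands, with an SD of 0.36. The differences were 5.15 ± 0.41 at POD 5 (35.4-fold, limma adjusted P = 0.010) and 5.80 ± 0.21 at POD 8 (55.8-fold, limma adjusted P = 0.00089).

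Ccl5 had the largest difference of the 9 genes in the heart. It was 10.35, 9.99 and 10.53 in the cardiac controls and 15.83, 15.65 and 15.93 in the cardiac allografts, a rise of 5.51 ± 0.17 (45.6-fold, 95% interval 33.8 to 61.4, limma adjusted P = 0.00034). In the liver it was 9.51, 9.47 and 8.56 in the controls, 12.91, 13.51 and 13.43 at POD 5 and 14.00, 14.29 and 14.08 at POD 8. Ccl5 was well above background on all 15 arrays, and every allograft of either organ lay above every control of either organ. The hepatic differences were 4.10 ± 0.33 at POD 5 (17.2-fold, limma adjusted P = 0.010) and 4.94 ± 0.29 at POD 8 (30.7-fold, limma adjusted P = 0.0029).

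Of the receptors, Ccr2 rose in the liver and Ccr1 was dim throughout. By its brighter probe, Ccr2 was 10.82, 10.10 and 10.59 in the cardiac controls and 11.56, 10.76 and 11.57 in the cardiac allografts, groups that overlapped. The cardiac difference of 0.79 ± 0.30 was not called (limma adjusted P = 0.11), but that of the second Ccr2 probe, 1.47 ± 0.18, was (limma adjusted P = 0.0041), so the 2 probes give different calls in the heart. In the liver the brighter probe was 6.14, 7.32 and 6.68 in the controls, 9.77, 9.55 and 10.22 at POD 5 and 9.49, 9.35 and 9.98 at POD 8. It rose by 3.13 ± 0.36 at POD 5 (8.77-fold, limma adjusted P = 0.021) and 2.90 ± 0.35 at POD 8 (7.44-fold, limma adjusted P = 0.018). The second Ccr2 probe was not well above background on any hepatic control array. Against the lowest measurable signal it was at least 4.89-fold higher at POD 5 and at least 3.30-fold higher at POD 8. Such a bound sets the mean of the allografts against the higher, on each control array, of the lowest signal among probes well above background and the probe's own. The limma adjusted P-values, 0.034 and 0.043, belong to the differences of the signals as measured (4.06 ± 0.57 and 3.49 ± 0.61), not to the bounds.

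Ccr1 was well above background on all 3 cardiac controls, on 2 of the 3 cardiac allografts and on 0 of the 9 liver arrays. Its level was 4.56, 4.78 and 4.46 in the cardiac controls and 3.92, 4.46 and 4.38 in the cardiac allografts, just below the controls. The difference of -0.35 ± 0.18 was not called (limma adjusted P = 0.20, 95% interval -0.81 to 0.11). On the liver arrays Ccr1 ran from 1.70 to 4.62 with no level that could be told from background, so no fold is given. As whole tissue was measured, fewer cells of a type and less RNA per cell cannot be told apart for any of these genes.

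**Figure D1:**
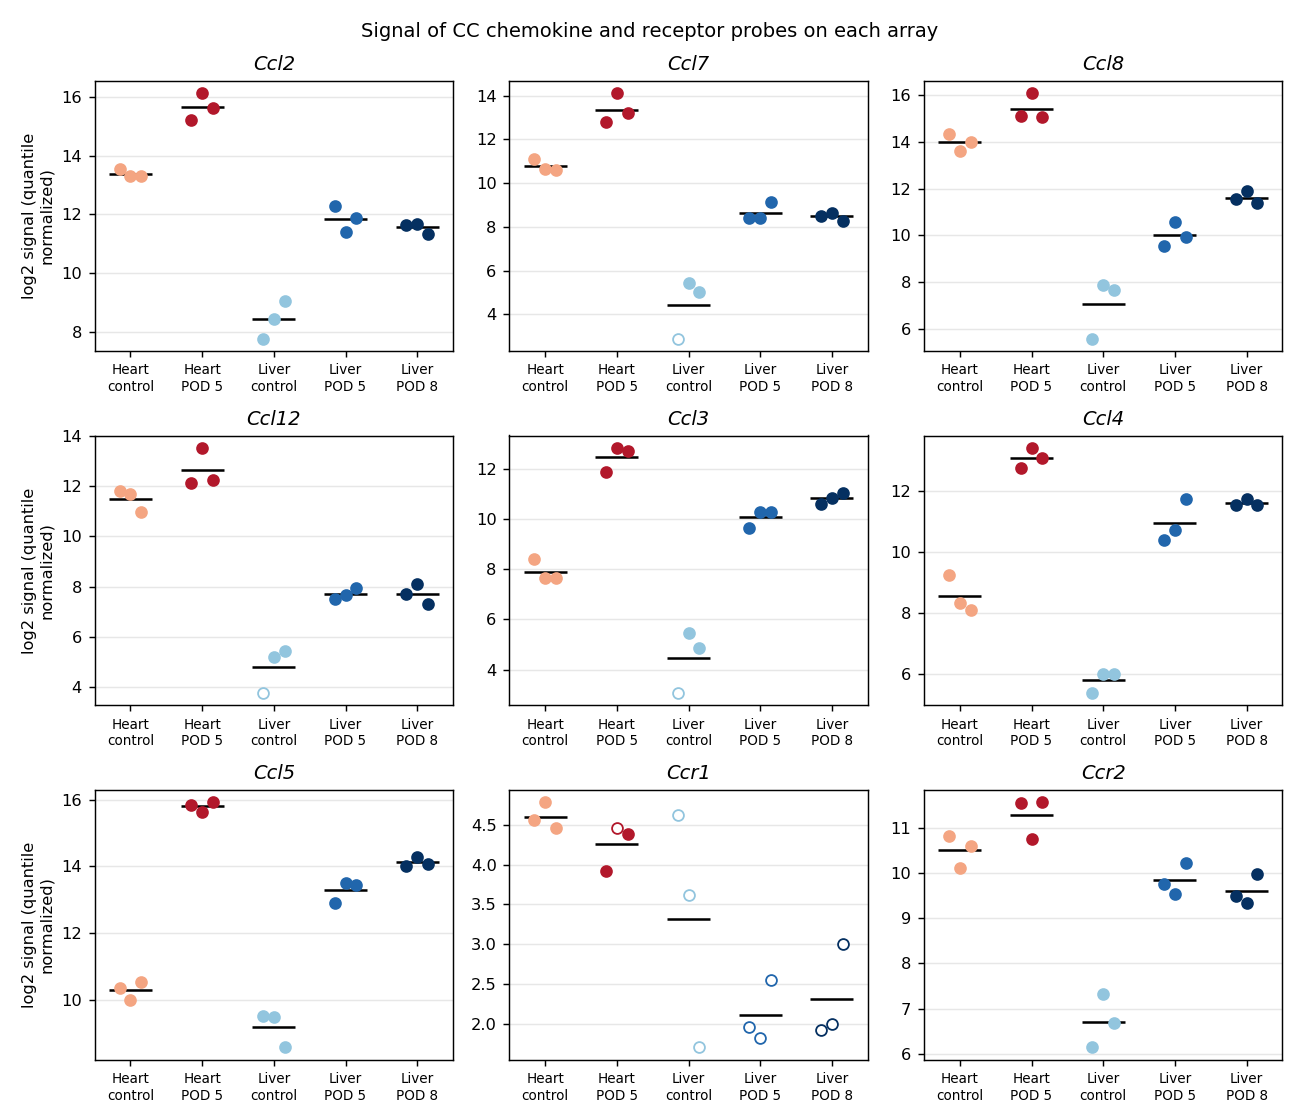
The log2 signal of the brightest probe of each of the 9 genes after quantile normalization (y axis, each panel on its own scale) on each of the 15 arrays in 5 groups (x axis). Points are arrays, filled where the probe was well above background and open where it was not, and bars are group means; Ccl2, Ccl7, Ccl8 and Ccl12 were higher in the cardiac controls than in any hepatic allograft, whereas Ccl3, Ccl4 and Ccl5 were higher in every allograft than in every control.

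The size of most hepatic differences depended on how the dim control signals were treated. After normexp background correction with an offset of 50, which raises the lowest signals, they were called for all 7 ligands and Ccr2 at both times, but at POD 5 and POD 8 they were 3.47 and 4.10 for Ccl3, 4.04 and 4.68 for Ccl4, 2.36 and 2.19 for Ccl7, 1.49997 and 1.47 for Ccl12 and 2.27 and 2.15 for Ccr2. For Ccl8 they were 2.31 and 3.78. Those of Ccl2 (3.09 and 2.83) and Ccl5 (3.88 and 4.76) moved less. Without the first, dimmest hepatic control the differences were 4.91 and 5.66 for Ccl3, 3.43 and 3.25 for Ccl7, which was then called at POD 5 too, and 2.23 and 3.82 for Ccl8.

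The levels of the 7 ligands and Ccr2 were ordered over the 5 groups in 2 forms. For Ccl2, Ccl7, Ccl8 and Ccl12 the hepatic controls were lowest, then the hepatic allografts, then the cardiac controls, then the cardiac allografts. For Ccl3, Ccl4 and Ccl5 the hepatic controls were lowest, then the cardiac controls, then the hepatic allografts, then the cardiac allografts. Neighbouring groups in these orders did not overlap, except hepatic POD 5 and POD 8, which overlapped for Ccl2, Ccl4, Ccl7 and Ccl12 and not for Ccl3, Ccl5 and Ccl8. The share of all probes separated in this way between the organs was not counted. Before normalization, the highest cardiac control lay above the lowest hepatic POD 5 allograft for Ccl3 (9.88 and 9.73) and Ccl4 (10.70 and 10.47). It also lay above the lowest cardiac allograft for Ccl8 (15.43 and 15.23) and Ccl12 (13.14 and 12.53). By its brighter probe, Ccr2 had the order of the Ccl2 group, but its hepatic allografts at POD 5 overlapped the cardiac controls, and these overlapped the cardiac allografts. By its second probe the cardiac groups did not overlap, and the means of the hepatic POD 5 allografts and the cardiac controls were alike (6.66 and 6.64). Ccr1 had neither order: its levels were lowest in the hepatic allografts and highest in the cardiac controls, and all neighbouring groups overlapped except the cardiac allografts and controls.

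Taking each comparison as a whole, 6 of the 9 genes were called higher in the cardiac allografts than in the cardiac controls and none lower: Ccl2, Ccl3, Ccl4, Ccl5, Ccl7 and Ccl8. Over all 41025 probes tested, 15.6% were called higher and 16.4% lower by the same limma test. The median difference of the 9 genes was 2.27, and that of all probes was 0.02. In 7 of the 9 genes every cardiac allograft lay above every cardiac control, which held for 29.1% of all probes. The standardized fold change, which the study developed and which takes the spread of a probe from its neighbours in brightness, called Ccl3, Ccl4 and Ccl5 after Bonferroni adjustment, a call made as higher for 0.336% of probes.

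In the liver at POD 5, 6 of the 9 genes were called higher than in the controls and none lower: Ccl2, Ccl3, Ccl4, Ccl5, Ccl12 and Ccr2. Here 2.38% of the 41155 probes were called higher and 0.778% lower, and the median difference was 3.42 for the 9 genes and -0.07 for all probes. Every allograft lay above every control in 8 of the 9 genes and in 12.4% of all probes. The standardized fold change called Ccl2, Ccl3, Ccl4, Ccl5, Ccl7 and Ccr2, against 0.787% of probes called higher. The limma calls rested on all 3 allografts: 0 of the 9 were called without the first or the second allograft, 2 without the third, and 7, 4 and 3 without the first, the second and the third control, while 8 of the 9 still had an unadjusted P-value under 0.05 without the first or the second allograft and the standardized fold change called the 6 genes above on all arrays. No slide held both a POD 5 hepatic allograft and a hepatic control, but each group spanned more than 1 slide, and with slide as a random block 4 of the 9 genes were called (Ccl2, Ccl4, Ccl5 and Ccr2).

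At POD 8, 8 of the 9 genes were called higher in the hepatic allografts than in the controls, all but Ccr1, and none lower. Of 41157 probes, 3.53% were called higher and 1.44% lower, and the median difference was 4.02 for the 9 genes and -0.08 for all probes. Every allograft lay above every control in 8 of the 9 genes and in 12.9% of all probes. The standardized fold change called 7 of the 9 (all but Ccl12 and Ccr1), against 0.814% of probes called higher. A slide shared by 2 allografts and 2 controls allowed a comparison within it: with slide as a fixed block the differences of the 8 genes were 2.69 to 6.45, close to those above, but none was called by limma (adjusted P = 0.053 to 0.16), 9 of the 9 genes had an unadjusted P-value under 0.05, and 0 probes were called in all. The 9 include Ccr1, which was well above background on no liver array, so this count does not set the other 8 genes apart from a background probe. Without any 1 of the 3 allografts, 2 of the 9 genes (Ccl4 and Ccl5) were called, and without the second or the third control 6 were, with Ccl7 and Ccl12 lost.

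**Figure D2:**
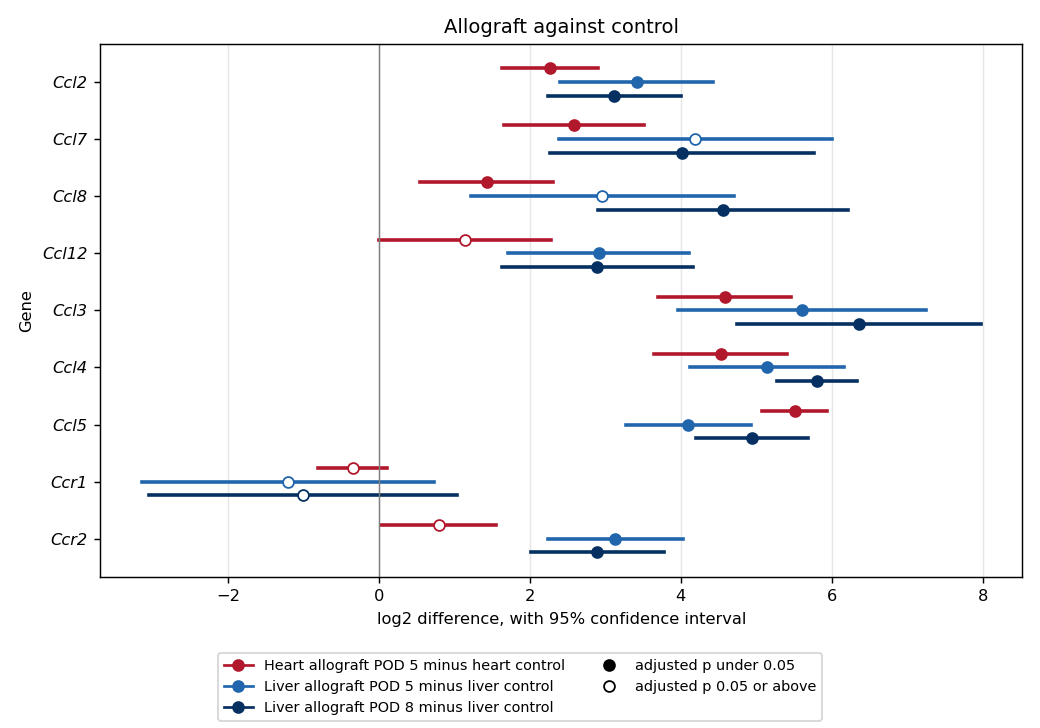
The log2 difference between allografts and controls (x axis, with 95% confidence intervals from limma) for each of the 9 genes (y axis) in the heart at POD 5 and in the liver at POD 5 and POD 8. Filled points had an adjusted P-value under 0.05; Ccl3, Ccl4 and Ccl5 lay between 4.10 and 6.36 in the 3 comparisons, and Ccr1 lay below 0 with intervals that crossed it.

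Between POD 8 and POD 5 in the liver, 0 of the 9 genes were called by limma, and 0 of 41165 probes were called in either direction (0% higher and 0% lower), with 5299 probes at an unadjusted P-value under 0.05. Among the 9 genes, 3 had an unadjusted P-value under 0.05, and in these every POD 8 allograft lay above every POD 5 allograft. The share of all probes separated in this way between the times was not counted, so the separation is a description only. Ccl8 was 3.03-fold higher at POD 8 (95% interval 1.79 to 5.13, limma adjusted P = 0.23), Ccl5 1.79-fold (1.28 to 2.51, limma adjusted P = 0.26) and Ccl3 1.69-fold (1.13 to 2.52, limma adjusted P = 0.31). The standardized fold change called Ccl8 alone among the 9 genes, and the methods' t-test with Benjamini-Hochberg adjustment called 0. Ccl2, Ccl7, Ccl12 and Ccr2 had differences between -0.29 and -0.01, with intervals that crossed 0. The widest was that of Ccl2, -0.92 to 0.33 on the log2 scale. Ccl4 overlapped between the times (0.65, limma adjusted P = 0.50). No slide held allografts of both days, and with slide as a random block the adjusted P-values of Ccl8, Ccl5 and Ccl3 were 0.81 each. The mean level of 7 neutrophil markers was 5.95 to 6.36 at POD 5 and 7.77 to 8.82 at POD 8. Their median difference was 0.84 and the largest 5.87, and 2 of them were well above background on no POD 5 array. Of the 7, 4 had an unadjusted limma P-value under 0.05 and 0 were called by limma. Their part in the differences above was not tested.

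The responses of the 2 organs at POD 5 were compared as the difference between the cardiac and the hepatic allograft-control differences, in a limma fit of those 4 groups. The strain pair and the placement of the graft differed between the organs, so neither can be told apart from the organ here. The slides mostly differed too. Over 41006 probes, 6.41% had a larger difference in the heart and 7.26% a larger one in the liver. Of the 9 genes, Ccl5 rose more in the heart, by 1.41 ± 0.39 (limma adjusted P = 0.041), and Ccr2 rose more in the liver, by 2.34 (-2.34 ± 0.49 as heart minus liver, limma adjusted P = 0.015). The second Ccr2 probe gave -2.59 ± 0.63 (limma adjusted P = 0.025). The other 7 genes were not called, with estimates from -1.77 for Ccl12 (95% interval -3.31 to -0.24, limma adjusted P = 0.12) to 0.85 for Ccr1, whose liver levels were background. The interval of Ccl7 ran from -3.50 to 0.28 around -1.61, and its second probe gave 0.32 ± 0.84, of the opposite sign. The estimates of Ccl3, Ccl4 and Ccl7 also changed sign after normexp background correction (0.79, 0.19 and 0.29), so no direction is given for these 3 genes. The Ccr2 call held without any 1 of these arrays, and the Ccl5 call was lost without any 1 of them but the third hepatic control (limma adjusted P = 0.054 to 0.090, against 0.0091 without that control). Without the third hepatic control Ccr1 was called too, by a probe that is not above background in the liver.

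The control heart held more of these transcripts than the control liver. Of the 9 genes, 8 were called higher in the cardiac than in the hepatic controls, all but Ccr1, beside 25.5% of 41023 probes called higher and 22.7% lower. The differences were 6.94 ± 0.67 for Ccl8, 6.70 ± 0.51 for Ccl12, 6.32 ± 0.70 for Ccl7 and 4.94 ± 0.34 for Ccl2. They were smaller for Ccr2 (3.79 ± 0.36), Ccl3 (3.43 ± 0.66), Ccl4 (2.75 ± 0.36) and Ccl5 (1.11 ± 0.31). For Ccl3, Ccl4 and Ccl5 they were smaller than each of the allograft differences, and for Ccl2, Ccl7, Ccl8, Ccl12 and Ccr2 larger. By the second Ccr2 probe the control difference was 4.04, not larger than its hepatic POD 5 difference of 4.06. After normexp correction the differences between the controls were still called, but were 1.55 for Ccl3, 1.90 for Ccl4, 2.99 for Ccr2, 4.19 for Ccl7, 4.79 for Ccl12 and 6.09 for Ccl8. Ccl5 was called in 12 of its 21 alternatives. Signal and slide moved with the organ in this comparison: the cardiac controls were the brightest arrays, the hepatic controls the dimmest, and no slide held both, so these cannot be told apart from the organ.

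**Figure D3:**
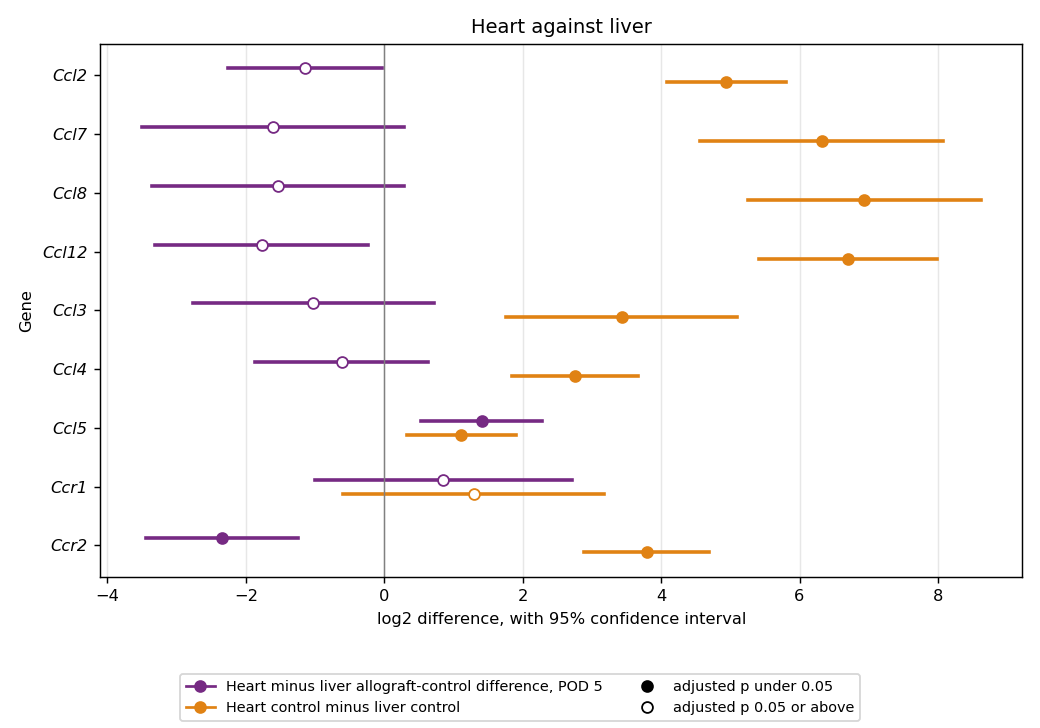
Log2 differences between heart and liver (x axis, with 95% confidence intervals) for each of the 9 genes (y axis): the cardiac minus the hepatic allograft-control difference at POD 5, and the cardiac minus the hepatic controls. Filled points had an adjusted P-value under 0.05; the first of these was called for Ccl5 (1.41) and Ccr2 (-2.34) and the second for all genes but Ccr1.

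Over the 15 arrays, the levels of the ligands fell into the same 2 sets. Pearson's r was 0.95 to 0.99 among Ccl2, Ccl7, Ccl8 and Ccl12, and 0.94 to 0.99 among Ccl3, Ccl4 and Ccl5. Between the sets it was 0.48, for Ccl5 and Ccl12, to 0.80, for Ccl3 and Ccl7. Ccr2 was closest to Ccl7 (0.94), and Ccr1 had r from -0.13 to 0.52 with the other 8 genes. These are descriptions with no P-value: the 15 arrays are 5 groups of 3, so r mostly follows the order of the group means.

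Among 22402 other probes with a gene symbol that were well above background on at least 3 arrays, those most alike over the 15 arrays were found for each gene, and 1 or 2 are named. They were Ch25h and Aida for Ccl2 (r = 0.99 for each), St6galnac4 for Ccl7 (0.99), Ifi205 for Ccl8 (0.98), and Stx7 and Polr2g for Ccl12 (0.99 for each). For the second set they were Coro2a and Evl for Ccl3 (0.99 for each), Gzma (granzyme A) and Tnfrsf9 for Ccl4 (0.99 for each), and H2-DMb1 and Socs1 for Ccl5 (0.99 for each). Havcr2 (0.99) and Ppp1r18 (0.98) were nearest to Ccr2, and Neto2 (0.97) and Zfp428 (0.94) to Ccr1, whose levels were mostly background.

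**Figure D4:**
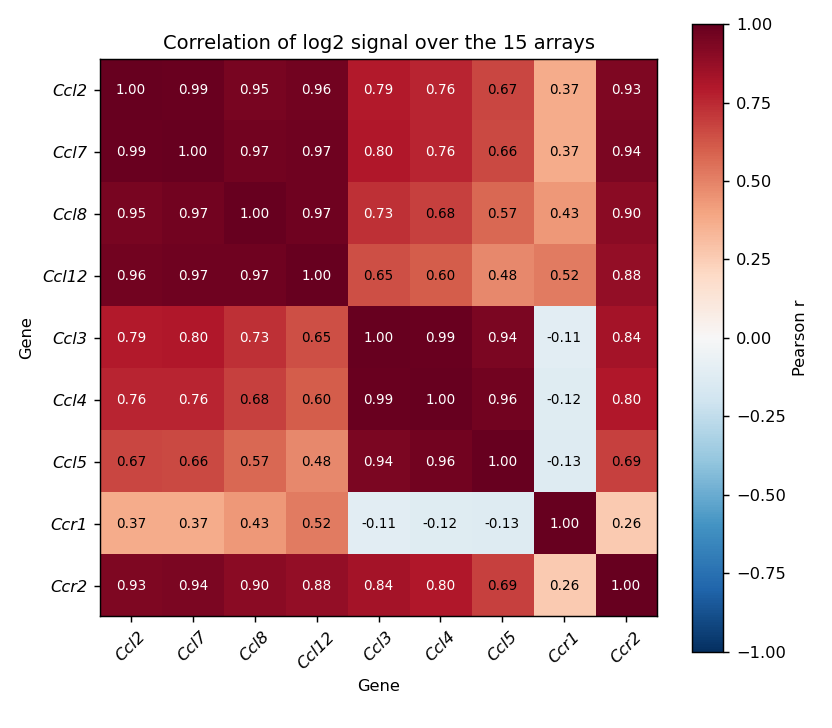
Pearson's r of the log2 signal over the 15 arrays between each pair of the 9 genes (both axes), as colour from -1 to 1 and as numbers. Ccl2, Ccl7, Ccl8 and Ccl12 form one block with r of 0.95 to 0.99, Ccl3, Ccl4 and Ccl5 another with 0.94 to 0.99, and Ccr1 stands apart.

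Of 13 other CC ligands on the array, 1 was called higher and 2 lower in the heart, beside 15.6% and 16.4% of all probes. In the liver at POD 5, 1 was called higher and 1 lower, beside 2.38% and 0.778% of all probes. At POD 8, 3 were called higher and none lower, beside 3.53% and 1.44%. The median differences of these ligands were 0.10 in the heart and 0.85 and 0.71 in the liver. In the liver every allograft lay above every control in 6 of the 13 at each time, against 12.4% and 12.9% of all probes, and 10 of the 13 had a difference above 0. Ccl1, a ligand of Ccr8 made by activated T cells, was not well above background on any cardiac control. With the processing used here it was at least 35.6-fold higher in the cardiac allografts. Its limma adjusted P-value, 0.0018, belongs to the difference of the signals as measured, not to this bound. Over the alternatives that difference of Ccl1 ran from 1.86 to 5.86, so the bound holds for this processing only. Ccl24 (eotaxin 2), which attracts eosinophils, rose in the liver by 3.37 ± 0.40 at POD 5 (limma adjusted P = 0.022) and 4.10 ± 0.43 at POD 8 (limma adjusted P = 0.013), and its cardiac difference was 1.38 ± 0.54 (limma adjusted P = 0.11). Ccl9, a ligand of Ccr1, fell by 2.19 in the heart (SE 0.46, limma adjusted P = 0.019) and its hepatic difference was 0.85 ± 0.18 at POD 5 (limma adjusted P = 0.073). Between the organs, the difference of Ccl9 was called (-3.04 ± 0.51, limma adjusted P = 0.0066). Ccl1 was not well above background on any hepatic array of POD 5 or the controls, so no size of its organ difference is given.

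Of 11 other CC and atypical chemokine receptors, 6 were called higher and 1 lower in the heart, beside 15.6% and 16.4% of all probes. In the liver 0 were called in either direction at POD 5, beside 2.38% and 0.778% of all probes. At POD 8, 2 were called higher and none lower, beside 3.53% and 1.44%. The median differences of these receptors were 1.09 in the heart and 0.38 and 0.75 in the liver. At POD 5 in the liver, 3 of them had an unadjusted limma P-value under 0.05, beside 8468 of all 41155 probes. The methods' t-test and the standardized fold change called 0 of these receptors too. The lymphocyte receptors Ccr6 and Ccr7 rose in the heart by 2.43 ± 0.16 (limma adjusted P = 0.0010) and 2.43 ± 0.28 (limma adjusted P = 0.0036). Ackr4, an atypical receptor that takes up homeostatic chemokines, fell by 4.13 in the heart (SE 0.41, limma adjusted P = 0.0024) and was well above background on 1 of the 3 cardiac allografts, and after normexp correction the difference was -1.76. The atypical receptors of the inflammatory ligands, Ackr1 and Ackr2, were not called in the heart (-1.26 ± 0.38, limma adjusted P = 0.056, and 0.95 ± 0.33, limma adjusted P = 0.084) or in the liver. Ccrl2, which binds chemerin and does not signal in the classical way, rose in the heart by 2.11 ± 0.36 (limma adjusted P = 0.010), and its hepatic differences were 1.68 ± 0.43 and 2.04 ± 0.41 (limma adjusted P = 0.11 and 0.060). Of the receptors named here, Ccr6 differed between the organs (1.99 ± 0.26, limma adjusted P = 0.0021).

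Genes of the NF-kB and interferon-gamma axis, which is known to drive transcription of these ligands, were called higher for 12 and lower for 1 of the 15 genes measured in the heart, 5 and 0 in the liver at POD 5, and 7 and 0 at POD 8. Their median differences were 1.94, 1.601 and 2.12. Over all probes, 15.6% were called higher and 16.4% lower in the heart. The shares were 2.38% and 0.778% in the liver at POD 5, and 3.53% and 1.44% at POD 8. Ifng, the gene of interferon gamma, rose by 10.56 ± 0.39 in the heart (limma adjusted P = 0.00043), by 5.79 ± 0.47 in the liver at POD 5 (limma adjusted P = 0.010) and by 6.19 ± 0.37 at POD 8 (limma adjusted P = 0.0030). Tnf rose by 4.47 ± 0.40, 2.55 ± 0.42 and 3.22 ± 0.44 (limma adjusted P = 0.0018, 0.047 and 0.025). Irf1, a transcription factor induced by interferon gamma, rose by 4.21 ± 0.18 in the heart (limma adjusted P = 0.00052) and by 2.12 ± 0.32 in the liver at POD 8 (limma adjusted P = 0.032), and its POD 5 difference was 1.72 ± 0.32 (limma adjusted P = 0.058). The organ differences of Ifng (4.77 ± 0.64, limma adjusted P = 0.0025) and Irf1 (2.49 ± 0.38, limma adjusted P = 0.0044) were called and that of Tnf was not (1.91 ± 0.61, limma adjusted P = 0.065).

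Of 11 genes for the supply and adhesion of monocytes, 7 were called higher in the heart, 2 in the liver at POD 5 and 5 at POD 8. None was called lower, and the median differences were 1.90, 1.097 and 1.83. The shares of all probes called higher in these comparisons were 15.6%, 2.38% and 3.53%, and those called lower 16.4%, 0.778% and 1.44%. Csf2, the growth factor GM-CSF, rose in the heart by 3.57 ± 0.66 (limma adjusted P = 0.013) from controls of which 1 of 3 was well above background, or by 1.02 after normexp correction. It was not well above background on any hepatic array of POD 5 or the controls. Cx3cl1 (fractalkine), the membrane-bound ligand of Cx3cr1, rose in the heart by 3.16 ± 0.14 (limma adjusted P = 0.00054), while its hepatic differences were 0.48 ± 0.23 and 0.09 ± 0.21 (limma adjusted P = 0.32 and 0.83). The cardiac and hepatic differences of Cx3cl1 differed by 2.68 ± 0.28 (limma adjusted P = 0.00092), and no size of the organ difference is given for Csf2. Without the first or the second POD 5 hepatic allograft, 0 genes of any of these 4 lists were called in the liver at POD 5, as for the 9 genes. In the heart, the count of other CC ligands called ranged from 1, without the first or the third cardiac control, to 5, without the second allograft.

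**Figure D5:**
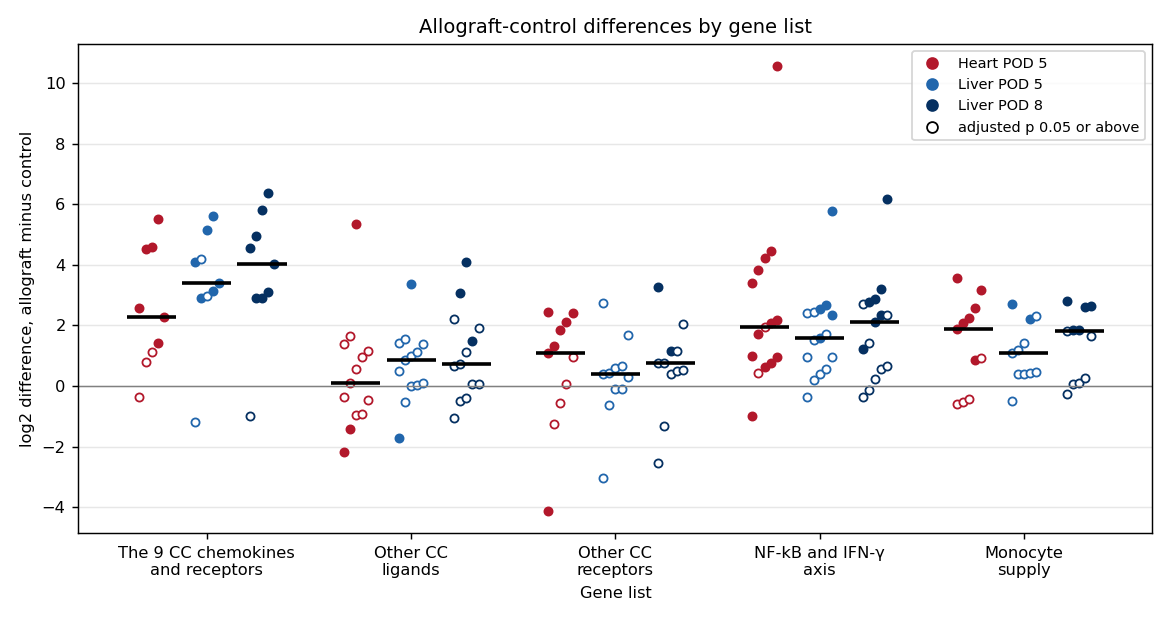
The log2 difference between allografts and controls (y axis) of each gene of the 9 CC chemokines and receptors and of 4 other gene lists (x axis), for the heart at POD 5 and the liver at POD 5 and POD 8. Points are genes, filled where the adjusted P-value was under 0.05, and bars are medians; the medians of the 9 genes were 2.27, 3.42 and 4.02, and those of the other CC ligands 0.10, 0.85 and 0.71.

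Many markers of the cells that make or follow these chemokines moved with the groups, and their part in the results above was not tested. For the counts below, 15.6% of all probes were called higher and 16.4% lower in the heart. The shares were 2.38% and 0.778% in the liver at POD 5, and 3.53% and 1.44% at POD 8. The mean level of 8 T cell markers was 5.64 to 6.03 in the cardiac controls and 9.60 to 10.04 in the cardiac allografts, and 5.32 to 5.78, 9.23 to 9.64 and 8.96 to 9.26 in the hepatic controls, POD 5 and POD 8, with 8, 6 and 6 of 8 called higher. That of 5 natural killer cell markers was 4.26 to 4.91 and 7.92 to 8.10 in the heart, and 3.47 to 3.67, 5.95 to 6.97 and 6.11 to 6.61 in the liver, with 5, 2 and 4 of 5 called higher. Among these 5 markers, 3 were well above background on no hepatic control array and 1 on no cardiac control array. Of 9 monocyte and macrophage markers, whose mean was 11.82 to 12.30 in the cardiac controls and 11.32 to 11.61 in the allografts, Ly6c2 (1.71 ± 0.16), a marker of inflammatory monocytes, and Fcgr1 (1.44 ± 0.22) were called higher in the heart, and Mrc1 (-3.23 ± 0.10) and Cd163 (-4.47 ± 0.11), markers of resident macrophages, were called lower. In the liver the mean of these 9 markers was 8.26 to 10.01 in the controls, 10.62 to 10.84 at POD 5 and 10.91 to 10.996 at POD 8. Ly6c2 alone was called (2.88 ± 0.20 and 2.84 ± 0.15). The median hepatic differences of the 9 markers were 1.49 at POD 5 and 1.76 at POD 8, and 8 were above 0 at each time. At an unadjusted limma P-value under 0.05 there were 4 at POD 5 and 7 at POD 8, beside 8468 of 41155 and 9116 of 41157 probes. All 5 endothelial markers were called lower in the heart, with a mean of 10.09 to 10.20 in the controls and 8.30 to 8.82 in the allografts, and limma called 0 in the liver, with 0 at POD 5 and 1 at POD 8 at an unadjusted P-value under 0.05. Of 5 fibroblast markers 4, and of 6 cardiomyocyte markers 3, were called lower in the heart, where the mean of the cardiomyocyte markers was 15.95 to 16.32 in the controls and 14.53 to 15.63 in the allografts. Of 5 Kupffer cell markers 3 were called lower in the heart and 1 higher in the liver at POD 8 (Marco, 2.26 ± 0.37). Of 7 neutrophil markers, 1 was called higher and 2 lower in the heart and 2 lower in the liver at POD 5, and of 4 B cell markers 1 was called higher, in the liver at POD 8.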

How the data were processed

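RNA of 15 tissue samples was labelled with Cy3 and hybridized to 1 array each, and groups were taken from the sample titles. The authors deposited processed intensities, on the linear scale, from Feature Extraction 10.5.1.1, background-subtracted and not normalized between arrays, with median spot and background intensities that were used in 1 alternative. Here log2 was taken, control and outlier-marked spots (47 to 113 per array) were dropped, repeated spots were reduced to their mean, and quantile normalization was run over the 15 arrays. A probe was well above background when at least 0.5 of its spots were so marked. Probes were named through RefSeq accessions (26690 of 41174, 64.8%). Each comparison was fitted with limma 3.58.1 in R 4.3.3 on its own groups, with Benjamini-Hochberg adjustment over all probes, with the data.table package (version 1.17.8) for reading. The standardized fold change used a bin of 1000 probes. Scripts were tested on simulated data, and plots were made in Python 3.11.15 (matplotlib 3.10.9).

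The 9 genes and all gene lists were chosen with earlier results of these data known. From each list of other ligands, other receptors, the NF-kB and interferon-gamma axis and monocyte supply, the 3 genes with the largest called difference in either organ at POD 5 were named, with Ackr1, Ackr2 and Ccrl2; for likeness, the 2 nearest probes per gene. Some genes that this rule picks are not reported here. Nfkb1, Cd68, Cd8b1 and Ly6g were matched to no probe and were not analysed here. The number of arrays limits the precision, and with 3 against 3 an exact permutation test cannot go below P = 0.1, so none was used. Alternatives were other scalings, background correction, filters, blocks, tests and leaving out each array.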

Additional observations from a re-analysis of the deposited data

Results flagged for a closer look

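The cardiac and hepatic responses at POD 5 differed by limma's test of the difference itself (heart minus liver, log2) for Ccl5 (1.41) and Ccr2 (-2.34), and for 7 of the genes named from the lists: Ccl1 (4.35), Ccl9 (-3.04), Ccr6 (1.99), Ifng (4.77), Irf1 (2.49), Csf2 (3.18) and Cx3cl1 (2.68). The values of Ccl1 and Csf2 rest on levels that were not well above background on any hepatic array of POD 5 or the controls, nor on any (Ccl1) or all but 1 (Csf2) of the cardiac controls, so their size cannot be read: after normexp they were 1.78 and 0.99, and that of Csf2 was no longer called (limma adjusted P = 0.068). The strain pair and the placement of the graft differed with the organ, so neither can be told apart from it in these values. Groups of 3 arrays were not examined for outlying samples.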

How the results depend on the processing

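Of the 9 genes, those called by limma numbered 6, 6 and 8 in the heart, the liver at POD 5 and the liver at POD 8, with 0 between the hepatic times, 2 between the organs' responses and 8 between the controls. Bonferroni adjustment gave 1, 0, 1, 0, 0 and 0, and the standardized fold change 3 in the heart, 1 between the hepatic times and 1 between the controls. The methods' t-test with Bonferroni adjustment gave 0 in the heart, liver POD 5, liver POD 8 and controls, and with Benjamini-Hochberg adjustment 0 at liver POD 5 and 3 at POD 8. Slide as a fixed block gave 0 at liver POD 8. The organ difference kept 1 call (Ccr2) with quantile normalization within each organ, 75th percentile scaling, the replicate block or slide as a random block. Leaving out 1 array at a time gave 5 to 7 in the heart, 0 to 7 at liver POD 5, 2 to 8 at POD 8 and 1 to 3 between the organs.

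With the replicate number as a block, 0 of the 9 were called at liver POD 5 and 0 at POD 8 (8 and 8 at an unadjusted P-value under 0.05), 6 in the heart, with Ccl8 lost (adjusted P = 0.098) and Ccr2 gained (0.035), and 1 between the organs. The numbers did not pair the arrays: deviations of same-numbered arrays correlated at -0.12 to 0.089.

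Direction changed for Ccr1 (-0.0011 with 75th percentile scaling), Ccl7 and Ccl12 (0.11 and 0.041 with the standardized fold change) between the hepatic times. After normexp it changed between the organs for Ccl3 (0.79), Ccl4 (0.19), Ccl7 (0.29) and Ccr7 (0.38), and for Csf2 at liver POD 5 with 75th percentile scaling (-0.39). None of these was called. With 1 array left out, Ccl7 (-0.31 to 0.076), Ccl12 (-0.21 to 0.18) and Ccr1 (-0.15 to 0.43) crossed 0 between the hepatic times, as did Ackr1 (-0.36 to 0.13) at liver POD 5, Cx3cl1 (-0.038 to 0.25) at POD 8 and Ccr7 (-0.83 to 0.026) between the organs. The cause was not tested. Over all alternatives of single genes, 944 of 1149 values of the 9 genes and 1010 of 1199 of the named list genes kept their direction and their side of the threshold.

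The number of probes called moved with the setting: 13116 in the heart against 21209 with 75th percentile scaling, 98 with Bonferroni adjustment and 242 with the standardized fold change; 1301 at liver POD 5 against 6205 in 1 fit of the 5 groups, 2204 with a filter on dim probes, 9 with Bonferroni adjustment and 28 to 756 without 1 array other than the first control; 2046 at POD 8 against 13022 with 75th percentile scaling and 306 to 592 without 1 allograft; 5605 between the organs against 15707 with 75th percentile scaling; and 19781 between the controls against 1142 with Bonferroni adjustment. Scaling to the 75th percentile moved the median of all probes to 0.47 in the heart, -0.39 and -0.47 in the liver at POD 5 and POD 8 and -0.81 between the controls. Signal over background limits the hepatic folds, as their values after normexp show.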
